A study of Homo sapiens with 6 samples.

Results

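The insulin-like growth factor (IGF) axis of lung fibroblasts was examined through 10 genes, chosen by symbol in the count table: the ligands IGF1 and IGF2, the receptors IGF1R and IGF2R, and the binding proteins IGFBP2, IGFBP3, IGFBP4, IGFBP5, IGFBP6 and IGFBP7. They are 10 of the 23355 gene entries analysed. RNA had been sequenced from HFL-1 cells, an established line of fibroblasts from human fetal lung that carries endogenous TAZ, a transcriptional co-activator encoded by WWTR1. The cells were grown in medium with fetal bovine serum and transfected, by Lipofectamine RNAiMAX, with the non-targeting control siRNA siNTC, with siTAZ #1 or with siTAZ #2, and total RNA was taken 48 h later, with 2 libraries in each group and 6 in all. No library came from untransfected cells, and each TAZ siRNA is a different sequence against the same gene. The study used these libraries to look for genes that depend on TAZ.

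IGF1 and IGF2 are secreted growth factors that act mainly through IGF1R, a receptor tyrosine kinase, whereas IGF2R (the cation-independent mannose 6-phosphate receptor) takes up IGF2 for degradation in lysosomes. The IGFBPs bind the ligands outside the cell, hold them away from IGF1R or deliver them to it, and are themselves cut by proteases that free the ligand. Fibroblasts secrete several IGFBPs, and IGFBP3 and IGFBP5 have been studied in lung fibrosis.

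The counts on named genes summed to between 15648055 and 32078188 per library. The 2 libraries of each group differed beyond counting error (mean chi-square 5.39 to 92.2 per gene over the 3 groups). WWTR1, the targeted gene, stood at 132 ± 1.01 CPM (counts scaled to a common library size by TMM, SD, n = 2) with siNTC, 27.4 ± 1.42 with siTAZ #1 and 44.6 ± 2.14 with siTAZ #2. The summed level of 8 fibroblast markers was 34625 to 34718 CPM with siNTC, 22859 to 23710 with siTAZ #1 and 26820 to 28570 with siTAZ #2, and its part in the results was not tested. The markers did not move as a block, since PDGFRA was at 424 CPM with siNTC and 1397 with siTAZ #1, and COL1A1 and THY1 were at 9308 and 446 with siNTC and 10680 and 629 with siTAZ #2. In bulk RNA, fewer cells of a kind and less RNA per cell cannot be told apart. Summed markers of other cell types stood at 0.774 to 3.09 CPM for 6 epithelial genes, 0 to 0.258 for 2 liver genes, 26.0 to 47.2 for 4 endothelial genes and 38.2 to 75.7 for 4 immune genes. The last pair came almost wholly from TEK (41.1, 44.4 and 25.9 CPM in siNTC, siTAZ #1 and siTAZ #2) and CD68 (74.4, 72.1 and 43.1), while PTPRC, CD3E and SFTPC had 0 to 3 counts per library, PECAM1 2 to 11 and EPCAM 5 to 51. The part of TEK and CD68 in the results was not tested. The replicate 2 library of siTAZ #1 stood apart, since the genes from RANGAP1 on chromosome 22 to the end of Y took 0.243% of its counts and 3.31% to 3.48% of the others. None of the 10 genes lies there, but the common dispersion over the genes tested was 0.0187 without those genes and 0.0807 with them. Without them, 4009 genes in place of 2889 passed the test below for siTAZ #1 against siNTC.

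The binding protein genes lie on 5 chromosomes (GRCh37). IGFBP3 lies at chr7:45951844-45961473 on the minus strand, beside IGFBP1. IGFBP5, at chr2:217536828-217560272 on the minus strand, is the neighbor of IGFBP2, at chr2:217497551-217529159 on the plus strand. RefSeq start-site windows on GRCh38.p14 (250 bases before the start and 50 from it) were found for 8 of the 10 genes, 11 windows in all. They were searched on both strands for GGAATG, the core letters bound by TEAD factors, the DNA-binding partners of TAZ, which 14.03% of all 35116 windows hold. The letters were in 2 of the 11 windows, those of IGFBP5 (235 bases before the start, reverse complement) and IGFBP6 (101 bases before), and not in that of IGFBP3. AP-1 letters (TGANTCA) were in none of the 11, against 7.71% of all windows. The windows of the binding proteins that fell furthest, rose furthest in CPM and passed no test are shown 5′ to 3′ on the strand of the gene, with the TEAD letters in capitals. A match is only a match of letters, and TAZ and TEAD binding were not measured here.

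IGFBP3 chr7:45921223-45921522, minus strand: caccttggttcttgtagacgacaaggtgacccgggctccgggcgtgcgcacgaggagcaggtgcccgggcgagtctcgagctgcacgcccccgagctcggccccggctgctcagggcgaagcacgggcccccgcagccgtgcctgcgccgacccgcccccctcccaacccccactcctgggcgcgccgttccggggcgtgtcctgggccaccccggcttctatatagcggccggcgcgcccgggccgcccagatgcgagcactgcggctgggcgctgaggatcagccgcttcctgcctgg
IGFBP5 chr2:216695500-216695799, minus strand: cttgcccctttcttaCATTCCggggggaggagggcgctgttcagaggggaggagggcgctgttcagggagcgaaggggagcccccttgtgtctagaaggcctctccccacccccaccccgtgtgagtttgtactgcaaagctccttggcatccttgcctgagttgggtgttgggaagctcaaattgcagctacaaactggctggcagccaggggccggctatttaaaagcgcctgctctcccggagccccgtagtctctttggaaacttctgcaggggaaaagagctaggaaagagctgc
IGFBP6 chr12:53097417-53097716, plus strand: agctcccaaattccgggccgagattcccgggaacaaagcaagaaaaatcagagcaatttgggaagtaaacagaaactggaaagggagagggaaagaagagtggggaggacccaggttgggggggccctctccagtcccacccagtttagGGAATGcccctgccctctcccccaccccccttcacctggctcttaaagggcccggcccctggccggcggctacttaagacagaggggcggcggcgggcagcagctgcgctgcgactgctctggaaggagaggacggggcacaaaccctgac

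To compare levels between genes, CPM was divided by the length of the canonical transcript (CPM per kilobase). With siNTC, IGFBP5 was the highest of the 10 genes at 431 CPM per kilobase, followed by IGFBP4 at 141, IGFBP3 at 125, IGFBP7 at 77.3 and IGFBP6 at 64.3. IGFBP4 (139.5 to 142.7 over the 2 libraries) and IGFBP3 (118.8 to 131.6) did not overlap. The receptors were lower, IGF2R at 18.9 and IGF1R at 10.1 CPM per kilobase, and IGFBP2 at 1.66, IGF1 at 0.19 and IGF2 at 0 closed the order. By these counts, HFL-1 cells with siNTC held many more transcripts of both receptors and of each binding protein but IGFBP2 than of either ligand. With siTAZ #1, IGFBP3 dropped from its place behind IGFBP4 to the level of IGF1R and IGFBP2, where the ranges of the 3 genes overlapped (5.58 to 6.53 CPM per kilobase for IGFBP3, 6.26 to 7.13 for IGF1R and 5.52 to 7.55 for IGFBP2). That overlap depends on the length used. Per kilobase of all exons of the gene, the ranges were apart, at 3.19 to 3.73 for IGFBP3, 5.49 to 6.26 for IGF1R and 1.65 to 2.25 for IGFBP2. With siTAZ #2, IGFBP3 stood at 11.6 by the canonical transcript, just under IGF1R at 13.9. The other places were held, with IGFBP5, IGFBP4, IGFBP7 and IGFBP6 leading in that order with both siRNAs.

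**Figure D1:**
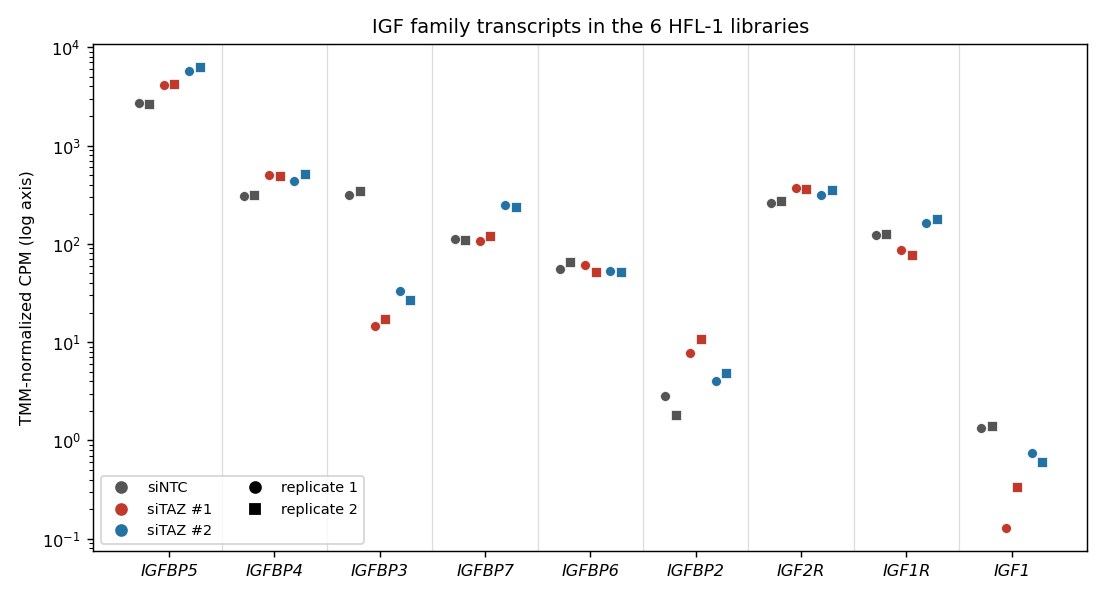
TMM-normalized CPM (log axis) of 9 IGF axis genes in each of the 6 libraries, colored by siRNA, with circles for replicate 1 and squares for replicate 2. IGFBP3 lies at 310 to 344 CPM with siNTC and at 14.6 to 33.5 CPM in the 4 TAZ siRNA libraries, while IGFBP5 is higher in all 4 than in either siNTC library. IGF2, with 0 to 2 counts per library, is not drawn.

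siTAZ #1 and siTAZ #2 were each set against siNTC, and then against each other, by edgeR's quasi-likelihood test over 14053 genes at a false discovery rate (FDR) of 0.05. Of the 10 genes, 9 passed the filter on low counts and IGF2 did not. With siTAZ #1, IGFBP3, IGF1 and IGF1R fell and IGFBP2, IGFBP4, IGFBP5 and IGF2R rose, while IGFBP6 and IGFBP7 did not pass the test. These were 3 genes lower and 4 higher, where 9.78% of all genes tested were lower and 10.8% higher. With siTAZ #2, IGFBP3 fell and IGFBP4, IGFBP5, IGFBP7, IGF1R and IGF2R rose, 1 lower and 5 higher, where 14.4% of all genes were lower and 14.1% higher. The median log2 fold change of the 9 genes was 0.05 with siTAZ #1 and 0.46 with siTAZ #2, and that of all genes 0.02 and 0.01. Both comparisons use the same siNTC libraries. Directly between the siRNAs, IGFBP3, IGFBP5, IGFBP7 and IGF1R were lower and IGFBP2 higher with siTAZ #1 than with siTAZ #2, 4 and 1 of the 9 genes, where 13.4% and 15.2% of all genes were called. By CPM alone, both siTAZ #1 libraries lay below both siNTC libraries for 3 of the 9 genes and above for 4, as for 31.1% and 33.2% of all genes tested (64.3% in either direction). Both siTAZ #2 libraries lay below for 3 and above for 6, as for 35.5% and 36% of all genes (71.4% in either direction). Between the siRNAs the numbers were 5 below and 2 above, against 33% and 32.6% of all genes (65.6% in either direction), so libraries that do not overlap are common in these data.

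**Figure D2:**
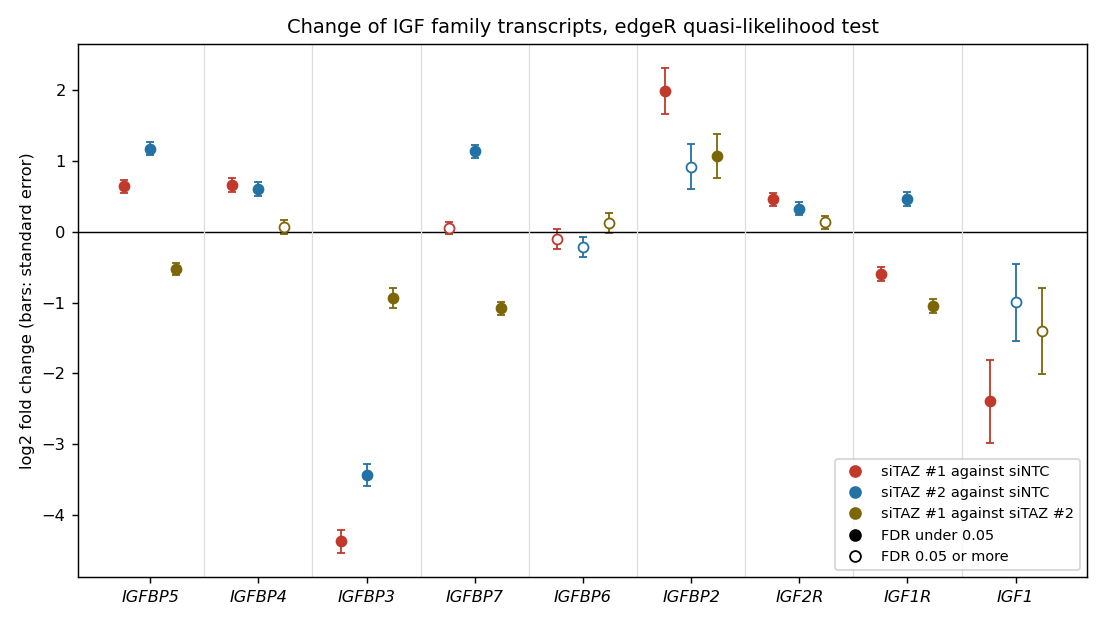
Log2 fold changes (y axis) of 9 IGF axis genes (x axis) for siTAZ #1 against siNTC (red), siTAZ #2 against siNTC (blue) and siTAZ #1 against siTAZ #2 (brown), with bars of 1 standard error from edgeR and filled points where FDR was under 0.05. IGFBP3 is at -4.37 and -3.43, and IGF1R is at -0.59 with siTAZ #1 and at 0.46 with siTAZ #2.

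IGFBP3, the main carrier of IGFs in the circulation, had the largest fall of the 9 genes with both siRNAs. It was read at 310 and 344 CPM in the siNTC libraries, at 14.6 and 17.1 with siTAZ #1 and at 33.5 and 27.0 with siTAZ #2. The 3 groups did not overlap, and the gap between siNTC and the TAZ siRNA libraries was far wider than that between replicates. The log2 fold change was -4.37 with siTAZ #1 (SE 0.16, FDR 0.000428), a 20.6-fold fall, and -3.43 with siTAZ #2 (SE 0.15, FDR 0.000367), a 10.8-fold fall. Both falls passed the test under all 16 alternative analyses run. IGFBP3 is also in the study's own list of genes lowered by both siRNAs. That list was drawn from these libraries, so its direction there is not independent evidence. From earlier data, the study also names IGFBP3 as regulated by TAZ in epithelial or cancer cells. It names IGFBP3 as regulated by TGF-β in lung fibroblasts too. The level was lower still with siTAZ #1 than with siTAZ #2, by a log2 difference of -0.93 (SE 0.14, FDR 0.00628), a call that edgeR's exact test on 4 libraries did not make (FDR 0.0965).

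IGFBP4 and IGFBP5 rose with both siRNAs. IGFBP5, which binds to extracellular matrix, gave 42958 and 42056 counts with siNTC, or 2723 and 2654 CPM. It was at 4107 and 4257 CPM with siTAZ #1 and at 5789.7 and 6290.1 with siTAZ #2, again with no overlap between any of the groups. By count it ranked 18th and 19th among all entries in the siNTC libraries, 10th in both siTAZ #1 libraries, and 9th and 6th with siTAZ #2. The rise was 1.56-fold with siTAZ #1 (log2 fold change 0.64, SE 0.09, FDR 0.00688) and 2.25-fold with siTAZ #2 (1.17, SE 0.09, FDR 0.000922). The siRNAs differed by -0.53 (SE 0.09, FDR 0.00868), or 0.0714 without siTAZ #2 replicate 2. IGFBP4, an inhibitory binding protein that is cut by the protease PAPPA, was at 308 and 315 CPM with siNTC, 497 and 485 with siTAZ #1 and 433 and 508 with siTAZ #2. All 4 TAZ siRNA libraries lay above both siNTC libraries, and the siRNA groups overlapped. The rise was 1.58-fold with siTAZ #1 (log2 fold change 0.66, SE 0.10, FDR 0.00844) and 1.51-fold with siTAZ #2 (0.60, SE 0.10, FDR 0.00826), and the interval of the difference between the siRNAs ran from -0.18 to 0.30. With either siNTC library left out, leaving a lone control library, the rise of IGFBP4 missed the threshold with both siRNAs (FDR 0.0769 to 0.0914) and that of IGFBP5 with siTAZ #1 (FDR 0.0897 and 0.0997). The IGFBP4 transcript is 62.6% G and C, and with an offset for GC content its rise with siTAZ #2 was 0.28 (FDR 0.0449). With that offset the siRNAs differed by 0.325 (FDR 0.0271), above the interval of the reported analysis.

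IGFBP7, a family member with low affinity for IGFs, differed between the siRNAs. It was at 111 and 110 CPM with siNTC, 108 and 120 with siTAZ #1 and 247 and 236 with siTAZ #2. Only the siTAZ #2 libraries stood apart from the rest. The log2 fold change was 1.13 with siTAZ #2 (SE 0.09, FDR 0.000925), a 2.19-fold rise, and 0.05 with siTAZ #1 (95% interval -0.16 to 0.26, FDR 0.738). The siRNAs differed by -1.08 (SE 0.09, FDR 0.00113), and the rise with siTAZ #2 and the difference between the siRNAs passed the test under all 16 alternatives. Of the 1930 exon bases of IGFBP7, 260 are shared with POLR2B on the opposite strand. The strand setting of the counting is not given, so reads from the genes cannot be told apart there.

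IGFBP6, which prefers IGF2 to IGF1, was at 55.7 and 66.0 CPM with siNTC, 61.6 and 51.5 with siTAZ #1 and 52.5 and 51.9 with siTAZ #2. The siTAZ #1 libraries overlapped with siNTC, and both siTAZ #2 libraries lay just below, as they did for 35.5% of all genes. The 95% intervals were -0.45 to 0.24 with siTAZ #1 (FDR 0.632) and -0.57 to 0.13 with siTAZ #2 (FDR 0.291). Its transcript is 64.7% G and C, and with the GC offset the change with siTAZ #2 was -0.66 (FDR 0.0172). IGFBP2, the least abundant of the 6 binding proteins with siNTC, gave 45 and 29 counts with siNTC, 121 and 348 with siTAZ #1 and 86 and 80 with siTAZ #2. In CPM it was at 2.85 and 1.83, then 7.81 and 10.7, then 4.02 and 4.83, and the groups did not overlap. It rose 3.95-fold with siTAZ #1 (log2 fold change 1.98, SE 0.32, FDR 0.0109), and the value with siTAZ #2 was 0.91 (SE 0.32, FDR 0.0826). The siTAZ #1 call missed the threshold without siNTC replicate 1 (FDR 0.0511) or replicate 2 (FDR 0.0776). The siRNAs differed by 1.07 (FDR 0.0477), a call that was lost in 10 of 16 alternatives. The transcript of IGFBP2, 67.4% G and C, was the richest of the 10, and the GC offset took its siTAZ #2 value to 0.30.

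Adding up the 6 binding proteins showed how their make-up moved. Per transcript length, IGFBP3 made up 14.9% ± 0.90 (SD, n = 2) of IGFBP transcripts with siNTC, 0.579% ± 0.056 with siTAZ #1 and 0.820% ± 0.167 with siTAZ #2. The share of IGFBP5 was 51.3% ± 1.55, 64.1% ± 0.79 and 68.1% ± 0.45. The binding protein pool thus held less IGFBP3 and more IGFBP5 in every TAZ siRNA library. There were 8.77 and 7.72 reads of IGFBP5 for each read of IGFBP3 in the siNTC libraries, 282 and 250 with siTAZ #1, and 173 and 233 with siTAZ #2. The 6 genes together summed to 3511 and 3490.0 CPM with siNTC, 4796 and 4941 with siTAZ #1 and 6559 and 7118 with siTAZ #2. Without IGFBP5 the sums were 787 and 836, 689 and 684, and 769 and 828 CPM, and the siNTC and siTAZ #2 groups overlapped. The higher sums in CPM therefore came from IGFBP5. With siTAZ #1, losses of IGFBP3 were offset in part by IGFBP4. With siTAZ #2, both IGFBP4 and IGFBP7 were higher. Per kilobase, IGFBP3 went from 125 with siNTC to 11.6 with siTAZ #2, IGFBP4 from 141 to 213 and IGFBP7 from 77.3 to 169. These sums and shares are descriptions and were not tested.

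**Figure D3:**
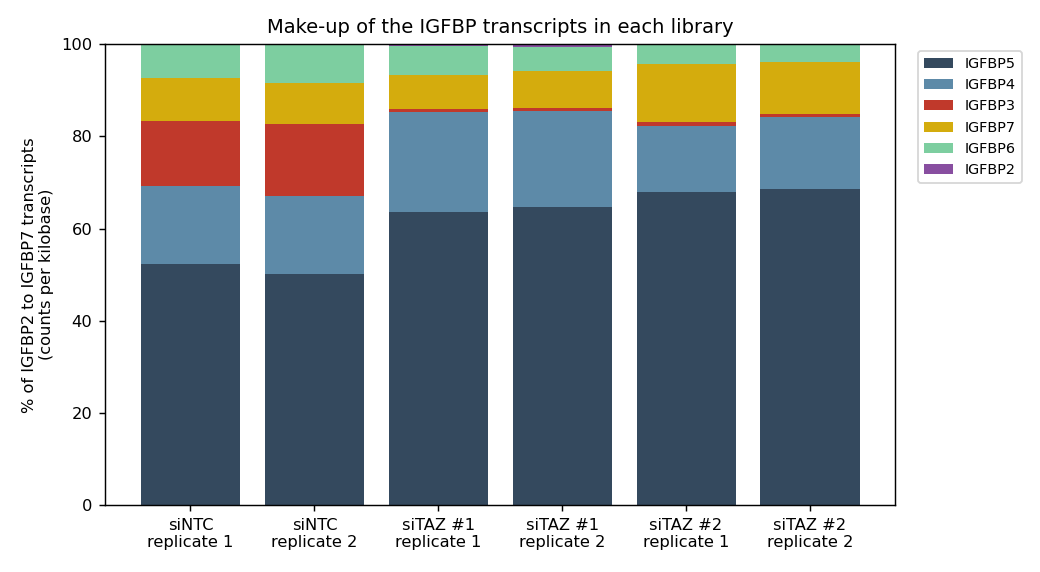
Percent of the transcripts of IGFBP2 to IGFBP7 (counts per kilobase, y axis) taken by each gene in each of the 6 libraries (x axis), stacked to the whole. The IGFBP3 band is 14.9% on average with siNTC and below 1% in each TAZ siRNA library, and the IGFBP5 band is widest in the siTAZ #2 libraries.

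The ligand genes were near the limit of what could be counted. IGF1 had 21 and 22 counts with siNTC, 2 and 11 with siTAZ #1 and 16 and 10 with siTAZ #2. In CPM these were 1.33 and 1.39, 0.129 and 0.337, and 0.748 and 0.604, with no overlap between the groups. The pooled level was 1.36 CPM with siNTC (exact Poisson 95% interval 0.984 to 1.83), 0.270 with siTAZ #1 (0.144 to 0.462) and 0.685 with siTAZ #2 (0.448 to 1.00). These intervals cover counting error only. IGF1 fell with siTAZ #1 by -2.39 (SE 0.59, FDR 0.0382), but the call was lost in 9 of 15 alternatives, among them those that left out any 1 of the 6 libraries (FDR 0.0619 to 0.175). With siTAZ #2 the value was -0.995 (95% interval -2.32 to 0.33, FDR 0.223). Of the 8115 exon bases of IGF1, 6693 are shared with the opposite-strand transcript HELLPAR, which cannot be told apart without strand. IGF2 had 0 counts in both siNTC libraries, 0 and 2 with siTAZ #1 and 1 and 0 with siTAZ #2. Of the 7146 exon bases of IGF2, 2711 are shared with another protein-coding gene on the same strand and 1460 with INS-IGF2, also on that strand. INS-IGF2 had 0 counts in each group. How reads in shared bases were counted is not given, and the part of this sharing in the low IGF2 counts was not tested. The floor for a sum of 0 counts, set at 3 counts over the group and not taken from the Poisson interval, is 0.0949 CPM with siNTC (the upper end of that interval is 0.117), and a change of IGF2 was not detectable at this depth.

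Of the receptors, IGF1R moved in opposite directions with the siRNAs and IGF2R rose with both. IGF1R was at 122 and 125 CPM with siNTC, 87.2 and 76.6 with siTAZ #1 and 162 and 177 with siTAZ #2. The groups did not overlap, with siNTC in the middle. IGF1R fell 1.51-fold with siTAZ #1 (log2 fold change -0.59, SE 0.10, FDR 0.0116) and rose 1.37-fold with siTAZ #2 (0.46, SE 0.10, FDR 0.0199). The difference between the siRNAs, 2.07-fold (-1.05, SE 0.10, FDR 0.00164), passed the test under all 16 alternatives. The changes against siNTC missed the threshold with siNTC replicate 1 left out (FDR 0.0877 with siTAZ #1 and 0.140 with siTAZ #2) or replicate 2 (FDR 0.0944 and 0.124), and the siTAZ #2 change also without siTAZ #2 replicate 1 (FDR 0.0567) or replicate 2 (FDR 0.126). IGF2R was at 263 and 270 CPM with siNTC, 372 and 358 with siTAZ #1 and 313 and 354 with siTAZ #2. All 4 TAZ siRNA libraries lay above both siNTC libraries. The rise was 1.37-fold with siTAZ #1 (log2 fold change 0.45, SE 0.09, FDR 0.0187) and 1.25-fold with siTAZ #2 (0.32, SE 0.09, FDR 0.0407). The siRNAs differed by 0.13 (95% interval -0.09 to 0.35). Both calls missed the threshold without siNTC replicate 1 (FDR 0.148 and 0.229) or replicate 2 (FDR 0.132 and 0.191), and that of siTAZ #2 without either of its own libraries (FDR 0.0562 and 0.212). The libraries held 0.465 and 0.463 IGF1R reads per IGF2R read with siNTC, 0.234 and 0.214 with siTAZ #1 and 0.517 and 0.501 with siTAZ #2.

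The genes most like IGFBP3 and IGFBP5 were found by the root-mean-square distance of log2 CPM over the 6 libraries, after centering on the siNTC mean. TXNIP, which encodes thioredoxin-interacting protein, was nearest to IGFBP3 (distance 0.217), with log2 fold changes of -4.43 and -3.56 with siTAZ #1 and siTAZ #2. HCLS1 (0.929), ZFP42 (0.937), PPAP2B (0.938) and B3GALT2 (1.04) followed at a wide gap. HCLS1 did not pass the test with siTAZ #2 (FDR 0.0656), and its siTAZ #1 call was lost in 6 of 14 alternatives. The 5 genes nearest to IGFBP5 were B3GALNT1 (0.0371), ORAI2 (0.0605), FHOD1 (0.0655), MFSD10 (0.0684) and the integrin subunit gene ITGAV (0.0696). For B3GALNT1 the log2 fold changes were 0.59 and 1.18, and its siTAZ #1 call was lost in 10 of 16 alternatives.

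Other genes of the IGF axis were taken from a list of 51, of which 39 passed the filter on low counts. With siTAZ #1, 7 of the 39 were lower, 5 higher and 27 not called, and with siTAZ #2, 11 were lower, 8 higher and 20 not called. Of all genes tested, 20.6% were called in either direction with siTAZ #1 and 28.5% with siTAZ #2. The median log2 fold changes of the list were 0.13 and -0.03, so it had no common direction. STC1 and HMGA2 were called higher and ADAM12 and GRB10 lower with both siRNAs, 4 of the 39, where 772 of all 14053 genes were higher and 525 lower with both, a like share.

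The proteases that cut IGFBPs, and their inhibitors, held the largest change of the list, that of STC1. STC1, an inhibitor of PAPPA, was at 42.1 and 35.1 CPM with siNTC, 1504 and 1608 with siTAZ #1 and 252 and 326 with siTAZ #2. The groups did not overlap, and STC1 rose by 5.33 (log2 fold change, SE 0.18, FDR 0.000428) with siTAZ #1 and by 2.90 (SE 0.16, FDR 0.00063) with siTAZ #2. PAPPA, which cuts IGFBP4, was at 89.8 and 93.7 CPM with siNTC, 145 and 165 with siTAZ #1 and 64.5 and 72.3 with siTAZ #2. It rose with siTAZ #1 (0.76, FDR 0.00683) and fell with siTAZ #2 (-0.42, FDR 0.0309), and the siRNAs differed by 1.18 (FDR 0.00145). STC2, also an inhibitor of PAPPA, fell with siTAZ #2 (-1.07, FDR 0.00135) and had a value of 0.09 with siTAZ #1 (FDR 0.54). HTRA1, a secreted serine protease, rose with siTAZ #2 (1.10, FDR 0.0074) and had a value of 0.30 with siTAZ #1 (FDR 0.277). ADAM12, a metalloprotease that cuts IGFBP3 and IGFBP5, was at 63.1 and 63.4 CPM with siNTC, 31.7 and 31.6 with siTAZ #1 and 38.9 and 40.0 with siTAZ #2. Its log2 fold change was -0.999 (FDR 0.00341) with siTAZ #1 and -0.68 (FDR 0.00727) with siTAZ #2. With siNTC replicate 1 or replicate 2 left out, the PAPPA changes missed the threshold (FDR 0.066 to 0.145), as did those of ADAM12 and HTRA1 with siTAZ #2 (FDR up to 0.0571 and 0.0757). The fall of PAPPA with siTAZ #2 also missed it without either library of that siRNA (FDR 0.143 and 0.0595).

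Downstream of IGF1R, the adaptors and the PI3K and AKT branch moved mostly with a single siRNA. GRB10, an adaptor that dampens signaling of IGF1R and the insulin receptor, was lower with both (-0.56, FDR 0.0355, and -1.61, FDR 0.00119). GRB2, an adaptor to the RAS pathway, fell with siTAZ #2 (-1.31, FDR 0.000939) and had a value of 0.15 with siTAZ #1. IRS1, the docking protein of the receptor, fell with siTAZ #2 (-0.58, FDR 0.011), and the value with siTAZ #1 was -0.10. FOXO3, a transcription factor held out of the nucleus by AKT, fell with siTAZ #1 (-1.37, FDR 0.000982), against -0.01 with siTAZ #2. For GRB2 and FOXO3 the siRNAs differed from each other by 1.46 and -1.36 (FDR 0.000854 and 0.000833). In all, 21 of the 39 genes differed between the siRNAs, 9 lower and 12 higher with siTAZ #1, where 28.6% of all genes differed in either direction. The list was chosen with earlier results of these data known, so setting these shares side by side is no test of it. Of genes tied to IGF2, HMGA2, a chromatin protein, rose by 1.29 (FDR 0.00684) and 0.98 (FDR 0.0116), and IGF2BP1, which binds IGF2 mRNA, fell with siTAZ #1 (-1.06, FDR 0.00179), against -0.20 with siTAZ #2 (FDR 0.161). PDPK1, the kinase that activates AKT, was called in opposite directions (-0.35, FDR 0.0409, and 0.44, FDR 0.0159), but the siTAZ #1 call was lost in 10 of 16 alternatives and the siTAZ #2 call without any 1 library of siNTC or siTAZ #2 (FDR 0.0622 to 0.119). With siNTC replicate 1 or replicate 2 left out, the calls of GRB10 with siTAZ #1 (FDR 0.149 and 0.189), of HMGA2 with siTAZ #1 (0.0773 and 0.065) and siTAZ #2 (0.0953 and 0.0748) and of IRS1 (0.0549 and 0.0795) missed the threshold. HMGA2 with siTAZ #2 also missed it without either siTAZ #2 library (0.0678 and 0.0565), and IRS1 without siTAZ #2 replicate 1 (0.0715). The insulin receptor gene INSR stood at 10.9, 12.3 and 11.7 CPM in the 3 groups and passed neither test.

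**Figure D4:**
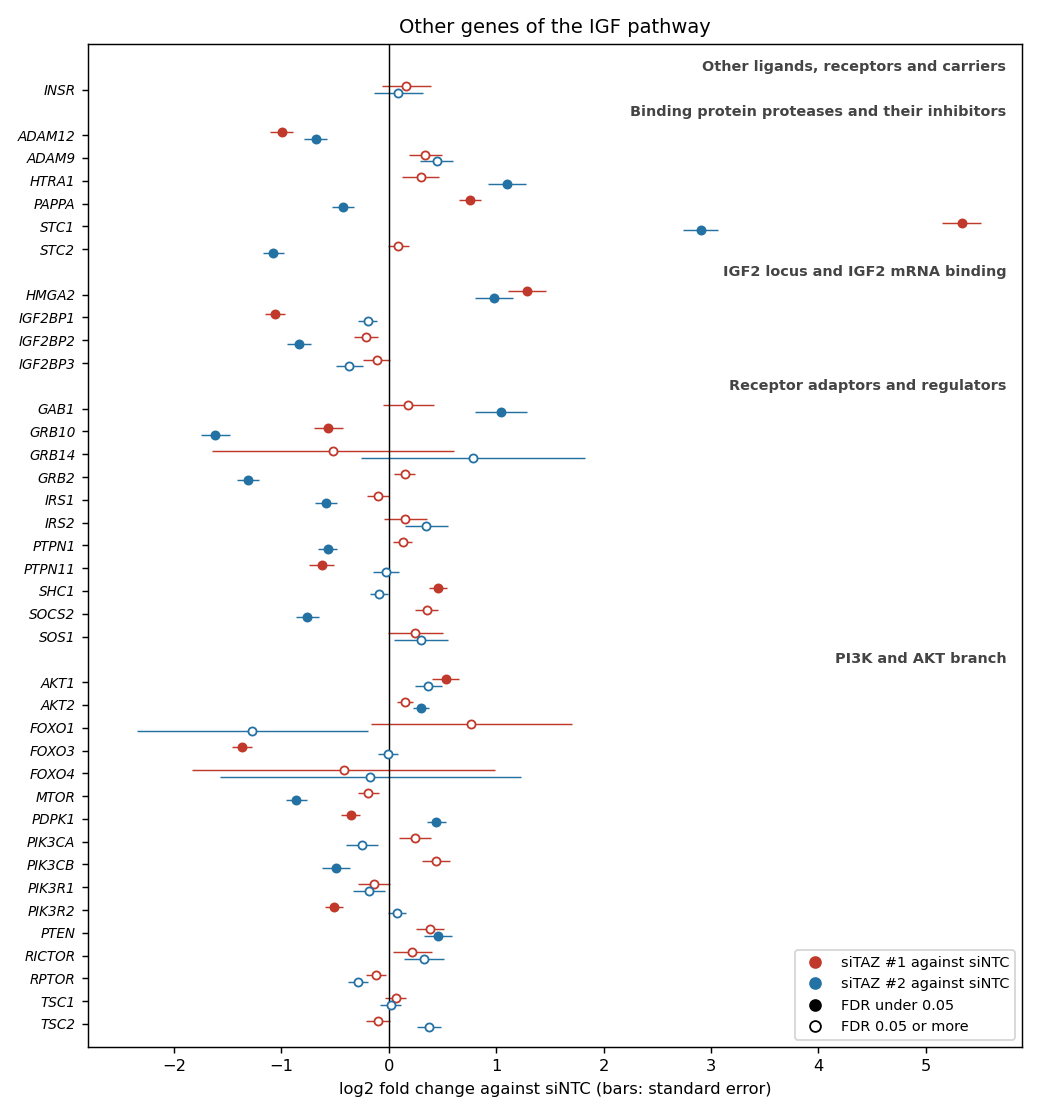
Log2 fold changes (x axis) of tested genes of the IGF axis list (y axis) with siTAZ #1 (red) and siTAZ #2 (blue) against siNTC, with bars of 1 standard error from edgeR and filled points where FDR was under 0.05. STC1 (5.33 and 2.90) lies furthest to the right with both siRNAs, and GRB10 (-1.61) lies furthest to the left with siTAZ #2.

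The spread of the values over the alternative analyses was narrow for most of the 9 genes, while calls near the threshold changed. The log2 fold change of IGFBP3 ranged from -4.49 to -4.26 with siTAZ #1 and from -3.60 to -3.31 with siTAZ #2. That of IGFBP5 with siTAZ #2 ranged from 1.08 to 1.25. IGF1 with siTAZ #1, at 13 counts over 2 libraries, ranged from -3.33 to -1.99. With edgeR's exact test on 4 libraries, the siTAZ #1 calls of IGFBP4, IGFBP5, IGF1R and IGF2R missed the threshold (FDR 0.167, 0.202, 0.223 and 0.449), as did the difference of IGFBP5 between the siRNAs (FDR 0.302). Over all genes, that test called 1061 of 13710 with siTAZ #1, where the reported analysis called 2889 of 14053.

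**Figure D5:**
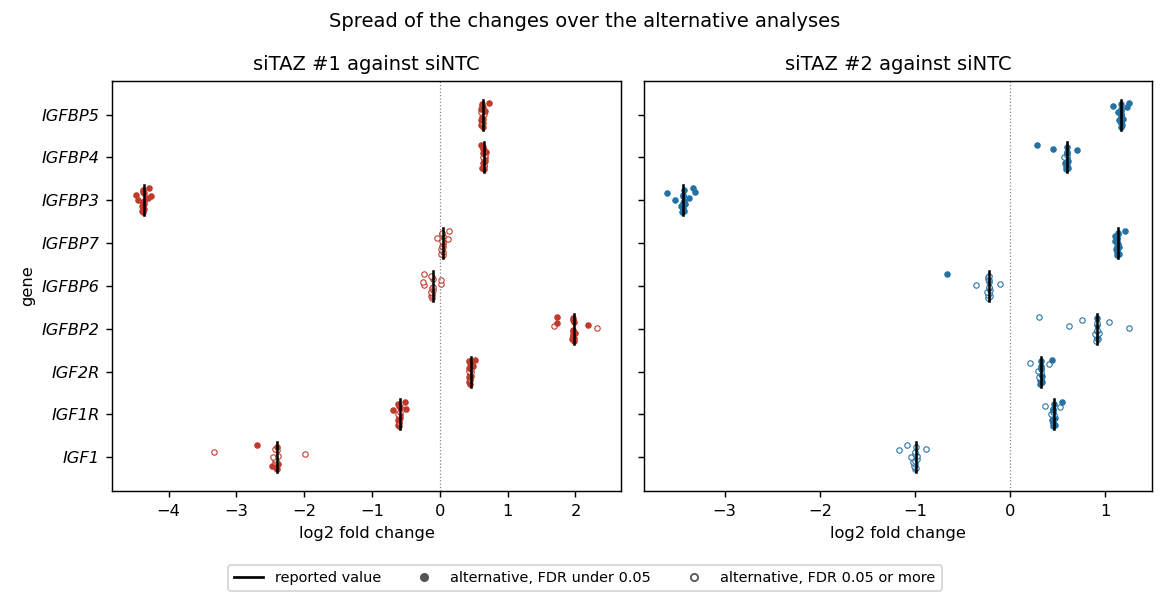
Log2 fold change against siNTC (x axis) of 9 IGF axis genes (y axis) in the reported analysis (black bars) and in up to 16 alternatives (points, filled where FDR was under 0.05), for siTAZ #1 (left) and siTAZ #2 (right). The points of IGFBP3 and IGFBP5 keep close to the bar. Those of IGF1 (-3.33 to -1.99) and IGFBP2 spread most with siTAZ #1. With siTAZ #2 those of IGFBP2 (0.30 to 1.25) and IGFBP6 (-0.66 to -0.11) do.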

How the data were processed

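RNA of 6 HFL-1 libraries had been sequenced on an Ion Proton. The deposited raw counts for each gene symbol were made by the authors with TMAP (alignment, hg19) and HTSeq 0.6.1. The strand setting and counting mode are not given in the sources used here. Of 23368 entries, 13 with a date in place of a symbol were left out (0.0458% to 0.0506% of counts). Totals were 15648055 to 32078188 counts.

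Tests were run in R 4.3.3 with edgeR 4.0.16: filterByExpr, TMM normalization and the quasi-likelihood test on all 6 libraries together, with Benjamini-Hochberg adjustment over 14053 genes (FDR 0.05). SEs were derived from the F statistic. The methods say that the siRNAs were transfected in duplicate, and p-values measure the spread between these samples. CPM is TMM-normalized. Lengths and GC content came from GENCODE transcripts on GRCh37, with 21372 symbols placed, 1920 of them through a synonym. The script was tested on simulated data. Alternatives were DESeq2 1.42.0, edgeR's exact test, a replicate block, a fit of the 4 libraries compared, each library left out, scaling by RLE or upper quartile, no low-count filter or a stricter one (mean count 50 or more), an FDR of 0.1, leaving out the RANGAP1-to-Y genes and, chosen after seeing the data, an offset for GC content.

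Named genes were the 10 IGF genes, WWTR1, genes of the IGF axis list called in the same direction with both siRNAs or between the siRNAs, INSR (chosen after its values were seen) and the 5 genes nearest to IGFBP3 and to IGFBP5. The genes and lists were chosen with earlier results of these data known. For 1 gene of the list, counted in its totals, values are not reported here.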

Additional observations from a re-analysis of the deposited data

Results flagged for a closer look

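The response to TAZ siRNA differed between siTAZ #1 and siTAZ #2 for 5 of the 9 IGF axis genes by edgeR's direct test between the siRNAs, given as the log2 difference of siTAZ #1 minus siTAZ #2. The differences were -0.93 for IGFBP3 (FDR 0.00628), -0.53 for IGFBP5 (FDR 0.00868), -1.08 for IGFBP7 (FDR 0.00113), -1.05 for IGF1R (FDR 0.00164) and 1.07 for IGFBP2 (FDR 0.0477). In each of these genes both libraries of either siRNA lay on their own side, a pattern that 65.6% of all genes tested shared, and 28.6% of all genes passed the same test. The level of WWTR1 also differed between the siRNAs, by -0.70 (FDR 0.00499), and its part in these differences was not tested.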

How the results depend on the processing

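RLE scaling, a mean count of 50 (which leaves out IGF1) and leaving out the RANGAP1-to-Y genes moved no count of called genes by over 1.5 times. For the 9 IGF axis genes, edgeR's exact test on 4 libraries called 1 higher in place of 4 with siTAZ #1, and between the siRNAs 2 lower in place of 4 and 0 higher in place of 1. Over all genes, that test called 1061 of 13710 with siTAZ #1 and 1498 of 13961 between the siRNAs. The reported analysis called 2889 and 4020 of 14053. With siTAZ #2 the exact test called more, 6424 of 13754 in place of 4004 of 14053. The single higher gene between the siRNAs, IGFBP2, was also lost (0 higher) with upper-quartile normalization, without the filter and in a fit of 4 libraries. The GC offset gave 2 genes lower with siTAZ #2 in place of 1, and 2 higher between the siRNAs, IGFBP2 and IGFBP4. For the 39 other genes, the exact test gave 3 lower in place of 7 and 2 higher in place of 5 with siTAZ #1, and 3 lower and 5 higher in place of 9 and 12 between the siRNAs. DESeq2 gave 9 higher and an FDR of 0.1 gave 8 higher in place of 5 with siTAZ #1. The labels do not say whether libraries with the same replicate number were paired. Their deviations correlated at -0.000692 (siNTC and siTAZ #1), 0.0109 (siNTC and siTAZ #2) and -0.0769 (siTAZ #1 and siTAZ #2). Without the RANGAP1-to-Y genes, the values were -0.00270, 0.00931 and -0.165. These correlations cannot exclude a pairing. With a replicate block, 3 IGF axis genes in place of 5 were higher with siTAZ #2, 0 were higher between the siRNAs, and 4 lower and 3 higher of the other genes were called with siTAZ #1.

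With 1 library left out, the IGF axis genes called ranged from 1 to 2 lower (3 in the reported analysis) and 0 to 4 higher with siTAZ #1, 2 to 6 higher with siTAZ #2 and 0 to 1 higher between the siRNAs, and the other genes from 3 to 9 lower and 1 to 9 higher with siTAZ #1 and from 5 to 13 lower and 2 to 11 higher with siTAZ #2. Without siNTC replicate 1 or replicate 2, fewer genes were called over all genes tested as well. The loss of calls was thus not particular to the IGF axis genes. The log2 fold changes with siTAZ #1 were then, in that order, 0.63 and 0.67 for IGFBP4 and 0.65 and 0.61 for IGFBP5. They were -0.62 and -0.59 for IGF1R, 0.43 and 0.46 for IGF2R, 2.32 and 1.69 for IGFBP2 and -2.45 and -2.39 for IGF1. The lone control library is then assumed to vary like the other groups.

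Signs turned only for values that passed no test in the reported analysis. With 1 library left out, IGFBP4 between the siRNAs ranged from -0.048 (without siTAZ #2 replicate 1) to 0.19, IGFBP6 from -0.24 to 0.017 with siTAZ #1 (0.012 without siNTC replicate 2, 0.017 without siTAZ #1 replicate 2) and from -0.016 (without siTAZ #1 replicate 1) to 0.24 between the siRNAs, and IGFBP7 with siTAZ #1 from -0.035 (without siTAZ #1 replicate 2) to 0.12. With siTAZ #1, IRS1 ranged from -0.21 to 0.0021, TSC2 from -0.23 to 0.015 and GAB1 from -0.13 to 0.42, and with siTAZ #2 PTPN11 ranged from -0.14 to 0.049, PIK3R2 from -0.018 to 0.14 and FOXO3 from -0.068 to 0.014. With the GC offset, GAB1 was -0.028 with siTAZ #1, and with siTAZ #2 PTPN11 was 0.034, PIK3R2 -0.33 (FDR 0.0179) and FOXO3 0.11. FOXO3 was 0.0041 when genes needed a mean count of 50. The causes were not tested. With 2 libraries per group, no permutation of the libraries can reach a p under 0.05, and the depth limits IGF1, IGF2 and IGFBP2.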

Other observations

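Of the 51 other IGF axis genes, 12 did not pass the filter on low counts. Among them, the liver-enriched binding protein gene IGFBP1, the neighbor of IGFBP3, had 0 counts with siNTC, 5 with siTAZ #1 and 0 with siTAZ #2, summed over the 2 libraries of a group. IGF2-AS1, the antisense transcript at IGF2, had 4, 2 and 2 counts, and IGFALS, which encodes the subunit that joins IGFBP3 and IGF in the circulating complex, had 1, 1 and 4.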
